A study of Mus musculus with 34 samples.

Results

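Mutant mouse neurons with altered copies of 7qF3, the chromosome 7 region syntenic to human 16p11.2, were set against control neurons, and a difference is reported only where deletion and duplication-deletion neurons both lay on the same side of control. The comparison used 8 of the 28 RNA-seq libraries of the series: 4 mutant libraries, 2 of each genotype, and 4 control libraries. The deletion libraries (replicates 1 and 3) came from 129Sv df/+ cells, with 1 copy of the region. The duplication-deletion libraries (replicates 2 and 4) came from 129Sv df/dp cells, which carry the duplicated region on one chromosome and lack it on the other. The control libraries (replicates 1 to 4) came from 129Sv +/+ cells. Both mutant genotypes were compared with these same controls, so a shared sign is a rule of selection and not independent evidence. C57BL/6N is given as the background strain of every group. All cells had been differentiated for 16 days through an epiblast stem cell stage towards midbrain dopaminergic neurons and are labelled immature. The labels do not say how many independent lines stand behind a genotype, or whether replicates were separate cultures, so p-values measure the spread between these libraries, which may be technical. The other RNA-seq libraries were embryonic stem cells (ESCs) and neural progenitor cells (NPCs) of the same genotypes, and 6 further samples of the series are chromosome contact maps that were not analysed here.

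Loss or gain of 16p11.2 is a recurrent copy number change in autism spectrum disorder. The clustered protocadherins, named in the title of the series, are cell surface adhesion proteins of neurons. They are encoded in the alpha, beta and gamma clusters on mouse chromosome 18, and each neuron uses a small choice of their alternative promoters. Midbrain dopaminergic neurons arise from floor plate progenitors that use Lmx1a and Foxa2, beside GABAergic and serotonergic neurons specified by other factors, among them Gata2, Gata3, Tal1 and Tal2.

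Neuron libraries held 41892753 to 56031950 counts each, and levels are given as CPM, counts scaled to the size of the library, after TMM scaling, which evens out differences in library composition. Control 3, control 4 and deletion 3 stood apart from the other 5 libraries on the first principal component, which held 34.6% of the variance. Their scores were 78.6, 72.0 and 73.6, against -96.3 to -21.5 for the others. Correlations of log2 CPM among these 3 libraries were 0.970 to 0.974, and 0.873 to 0.944 in the other 25 pairs of libraries. The entry with the most counts took 19.6% to 38.8% of a library, with close shares in libraries of the same replicate number. The 3 libraries that stood apart hold 1 mutant and 2 controls, so several results below are also given without them.

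**Figure D1:**
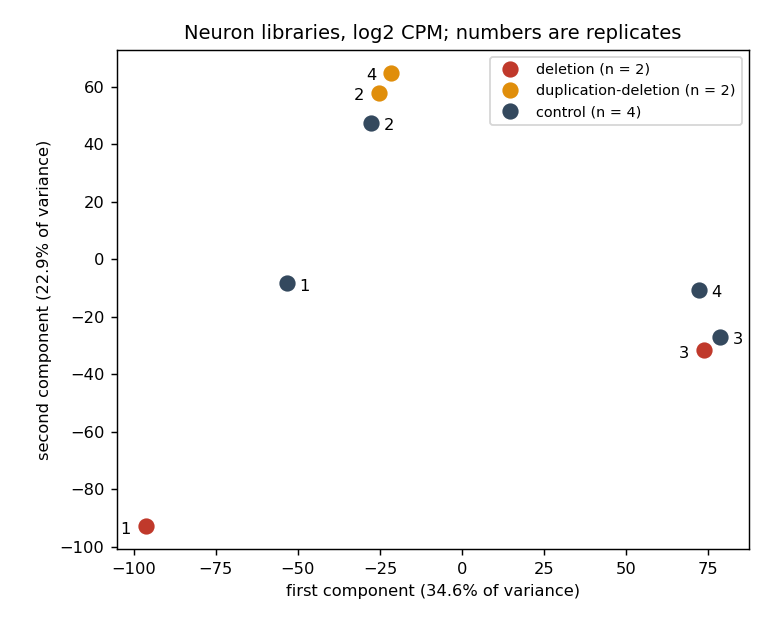
Scores of the 8 neuron libraries on the first 2 principal components of log2 CPM, with the share of variance on each axis. Points are libraries, colours are genotypes and numbers are replicates. Control 3, control 4 and deletion 3 lie together on the right at scores of 72.0 to 78.6, and deletion 1 lies alone at the lower left.

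Genes of the 7qF3 interval were lowest in deletion neurons. The median of the 27 interval genes tested (of 33) was 36.3% and 62.7% of the control mean in the deletion libraries. It was 87.9% and 86.3% in the duplication-deletion libraries. In control libraries it was 80.5%, 86.7%, 121% and 104%. The groups averaged 49.5% ± 18.7 in deletion neurons (SD, n = 2), 87.1% ± 1.14 in duplication-deletion neurons (SD, n = 2) and 97.9% ± 18.0 in control neurons (SD, n = 4). The duplication-deletion values lay within the range of the controls.

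Of the 27 interval genes, 16 had a negative log2 fold change in both genotypes and 0 had a positive one in both, beside 29.5% and 23.6% of all 16919 genes tested. Sez6l2, a membrane protein of neurons, had the smallest p. Its level was 25.4 and 40.7 CPM in deletion and 41.7 and 20.6 CPM in duplication-deletion libraries, against 44.0, 47.6, 102 and 46.6 CPM in control libraries. All 4 mutant libraries lay below all 4 controls (log2 fold change -0.91 ± 0.35 SE, edgeR adjusted p = 1.00). Taok2, a kinase of the MAPK cascade, had 21.8 and 41.4 CPM in deletion and 70.6 and 70.2 CPM in duplication-deletion libraries, against 55.4 to 101 CPM in control libraries. Its log2 fold change was -1.35 in deletion and -0.19 in duplication-deletion neurons. Mapk3 (-0.76 and -0.13), the transcription factor Maz (-0.96 and -0.31) and the phosphatase subunit Ppp4c (-1.53 and -0.30) lay in the same order for deletion and duplication-deletion neurons. The glycolytic enzyme Aldoa had -0.10 in deletion and -0.50 in duplication-deletion neurons, and its pooled value turned to 0.18 without the 3 libraries that stood apart. Kctd13, an adaptor of a ubiquitin ligase, differed in sign between the genotypes (-0.78 and 0.20).

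Dopaminergic markers were present but uneven. Th, the rate-limiting enzyme of dopamine synthesis, had 13.2 and 37.3 CPM in deletion and 203 and 48.7 CPM in duplication-deletion libraries, against 40.6, 112, 90.8 and 89.2 CPM in control libraries. Slc6a3, the dopamine transporter, had 15.9 and 8.34 CPM in deletion and 180 and 88.6 CPM in duplication-deletion libraries, against 14.8, 48.2, 53.3 and 113 CPM in control libraries. The vesicular monoamine transporter Slc18a2 was listed at 0 in control 1 and had up to 57.7 CPM in the other controls. The labelled identity therefore had its defining enzymes and transporters in most libraries of each group. Neuronal tubulin Tubb3 had 316 to 621 CPM in mutant and 513 to 768 CPM in control libraries.

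No difference of these markers was shared by the genotypes in a form that passed the test. Of the 17 dopaminergic genes tested, 0 were positive and 5 negative in both genotypes. The list's median log2 fold change was -1.65 in deletion and 0.60 in duplication-deletion neurons, so the pooled median of -0.02 averages opposite values. En1, a homeobox factor of midbrain dopaminergic neurons, had 14.1 and 12.9 CPM in deletion and 163 and 43.0 CPM in duplication-deletion libraries, against 39.9 to 95.2 CPM in control libraries. Foxa2 (0.02 ± 0.31 SE), Lmx1b (0.26 ± 0.57 SE), Nr4a2 (0.80 ± 0.57 SE), Pitx3 (-0.80 ± 0.71 SE) and Ddc (-0.36 ± 0.55 SE) had pooled log2 fold changes less than 2 standard errors from 0. The retinaldehyde dehydrogenase Aldh1a1 had the smallest p of the list. It had 96.9 and 25.5 CPM in deletion and 171 and 91.99 CPM in duplication-deletion libraries, against 144 to 275 CPM in control libraries (log2 fold change -0.99 ± 0.47 SE, edgeR adjusted p = 1.00). In bulk RNA, fewer cells of a type and less RNA per cell cannot be told apart.

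Across all genes, pooling both genotypes gave 0 genes past an adjusted p of 0.05 with edgeR's quasi-likelihood test, which is 0% of the 16919 tested. Limma-voom gave 0 as well, and 508 genes (3.00%) had an unadjusted edgeR p below 0.05. Of these, 333 (1.97%) were higher and 169 (0.999%) lower in both genotypes. DESeq2's Wald test, run as an alternative, called 19 of 16880 genes (0.113%), of which 9 (0.0533%) were higher and 10 (0.0592%) lower, all with the same sign in both genotypes. In 160 genes (0.946%) every mutant library lay above every control library with the same sign in both genotypes, and in 155 (0.916%) every mutant library lay below. The median log2 fold change over all genes was -0.01. The 8 genes in each direction with the smallest p among such non-overlapping genes with a mean of at least 2 CPM are described next. They were chosen from this contrast, so their fold changes are descriptions and none passed the edgeR test. DESeq2 called 13 of these 16.

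**Figure D2:**
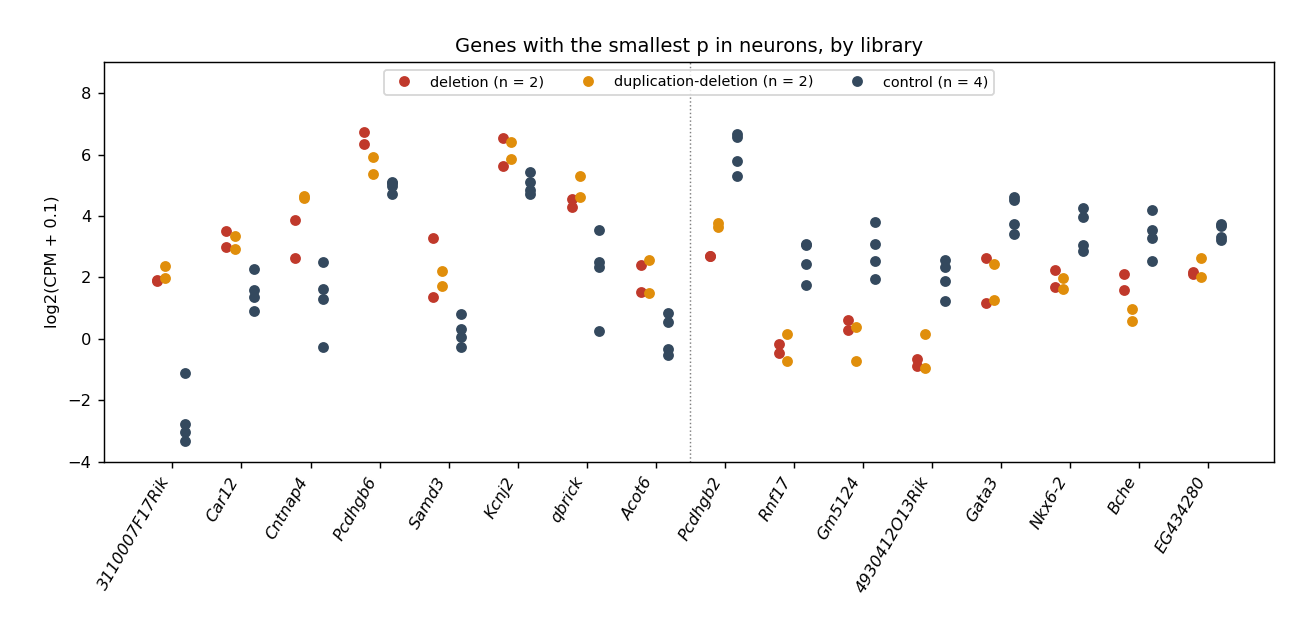
Level of the 16 leading genes in each neuron library, as log2 of CPM plus 0.1. Points are libraries, colours are genotypes with the mutant points left of the control points, and the dotted line parts the 8 higher genes from the 8 lower ones. In each gene the mutant and control points do not overlap, by the rule that chose them, and the gap is widest for 3110007F17Rik, followed by Rnf17 and Pcdhgb2.

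Pcdhgb2, an isoform of the protocadherin gamma cluster, had the smallest p of all genes. Its level was 6.36 and 6.39 CPM in deletion and 12.3 and 13.4 CPM in duplication-deletion libraries, against 39.6, 55.5, 101 and 94.7 CPM in control libraries. The lowest control was thus well above the highest mutant library. Its mean was 9.62 ± 3.78 CPM in mutant and 72.8 ± 29.9 CPM in control neurons (SD, n = 4 each). The log2 fold change was -2.92 ± 0.40 SE with a 95% interval of -3.80 to -2.04, an edgeR adjusted p of 0.336 and a DESeq2 adjusted p of 3.52e-09. It was -3.51 in deletion and -2.50 in duplication-deletion neurons, and the genotypes did not differ past the threshold (edgeR adjusted p = 0.541). Without the 3 libraries that stood apart it was -2.14. Gamma isoforms share constant exons, so the assignment of reads among them is uncertain.

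Rnf17, which encodes a tudor domain protein known from male germ cells, was the other leading gene of small p. It had 0.801 and 0.631 CPM in deletion and 1.03 and 0.506 CPM in duplication-deletion libraries, against 5.27, 3.29, 8.18 and 8.44 CPM in control libraries. All mutant libraries lay near the same low level. The log2 fold change was -3.09 ± 0.45 SE (edgeR adjusted p = 0.336, DESeq2 adjusted p = 7.74e-08), with -3.13 in deletion and -3.04 in duplication-deletion neurons. Gm5124, annotated by RefSeq as a transcribed pseudogene on chromosome X, had 1.43, 1.13, 1.21 and 0.506 CPM in the mutant libraries (deletion 1 and 3, duplication-deletion 2 and 4), against 3.79, 13.7, 8.50 and 5.64 CPM in control libraries. Its log2 fold change was -2.89 ± 0.51 SE (edgeR adjusted p = 0.907). Reads of a pseudogene can be shared with its parent gene.

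Gata3 and the long noncoding RNA 4930412O13Rik, neighbours on chromosome 2, were both lower in all 4 mutant libraries. In the deposited mm9 coordinates Gata3 spans 9778705 to 9800227 and 4930412O13Rik spans 9802873 to 9808394, which leaves 2646 bases between them. RefSeq places their start sites 2646 bases apart on opposite strands in GRCm38, Gata3 on the minus and 4930412O13Rik on the plus strand. The promoters at these starts are printed because both genes are among the 8 leading lower genes. On GRCm38 the RefSeq span of Gata3 reaches 9887953, beyond the Gata3 start used here and past 4930412O13Rik. The pair is thus divergent for the start used here, and not over the whole span of Gata3. Each sequence runs 5′ to 3′ from 250 bases before to 50 bases after the start, taken from RefSeq on GRCm38.p6, with the dinucleotide CG in capitals. The windows are chr2:9878551-9878850 (minus strand) for Gata3 and chr2:9880996-9881295 (plus strand) for 4930412O13Rik.
Gata3: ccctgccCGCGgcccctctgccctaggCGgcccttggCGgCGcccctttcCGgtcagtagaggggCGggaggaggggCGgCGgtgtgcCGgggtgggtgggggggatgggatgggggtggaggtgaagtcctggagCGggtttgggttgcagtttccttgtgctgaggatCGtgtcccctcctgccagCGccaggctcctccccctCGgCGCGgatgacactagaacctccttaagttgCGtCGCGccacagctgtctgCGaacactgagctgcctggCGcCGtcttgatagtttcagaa
4930412O13Rik: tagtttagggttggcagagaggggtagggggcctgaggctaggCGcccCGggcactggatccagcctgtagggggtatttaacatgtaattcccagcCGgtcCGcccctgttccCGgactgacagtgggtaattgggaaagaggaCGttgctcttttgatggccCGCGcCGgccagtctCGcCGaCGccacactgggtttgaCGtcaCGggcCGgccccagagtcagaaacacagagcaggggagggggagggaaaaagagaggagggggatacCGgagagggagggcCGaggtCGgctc
The Gata3 window holds 22 CG dinucleotides, a count reached by 23.1% of 32851 RefSeq promoters of the same length. The 4930412O13Rik window holds 18, reached by 29.7%, and the median promoter holds 7. These counts describe the letters only.

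Gata3, a zinc finger factor of GABAergic and serotonergic neurons, had 6.16 and 2.14 CPM in deletion and 5.31 and 2.33 CPM in duplication-deletion libraries, against 22.6, 13.2, 24.6 and 10.6 CPM in control libraries. Its log2 fold change was -2.16 ± 0.45 SE (edgeR adjusted p = 1.00, DESeq2 adjusted p = 0.00475). 4930412O13Rik had 0.437 and 0.535 CPM in deletion and 1.00 and 0.413 CPM in duplication-deletion libraries, against 5.01, 2.23, 5.77 and 3.59 CPM in control libraries. Its log2 fold change was -2.79 ± 0.50 SE (edgeR adjusted p = 0.907, DESeq2 adjusted p = 0.000113). Neither gene's mutant and control ranges touched. RefSeq on GRCm38 gives Gata3 a longer span, 9857078 to 9887953, that takes in 4930412O13Rik (9881246 to 9886767). The library kit marked strand, but whether counting used it is not given in the sources used here, so reads of the pair may not be separable.

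The other leading lower genes were a regulator, an enzyme and a long noncoding RNA. Nkx6-2, a homeobox factor of the ventral neural tube, had 4.64, 3.15, 3.89 and 2.96 CPM in the mutant libraries (deletion 1 and 3, duplication-deletion 2 and 4), against 7.24, 8.17, 19.1 and 15.5 CPM in control libraries. Its log2 fold change of -1.77 ± 0.38 SE moved to -0.998 without the 3 libraries that stood apart, which include its highest controls. Bche, butyrylcholinesterase, had 4.27, 2.93, 1.86 and 1.41 CPM in the mutant libraries in the same order, against 9.61, 11.5, 5.73 and 18.1 CPM in control libraries (-2.11 ± 0.47 SE). EG434280, whose current symbol is Sox1ot, is a long noncoding RNA that spans the progenitor factor Sox1 on chromosome 8. It had 4.47, 4.19, 6.09 and 3.94 CPM in the mutant libraries, against 13.2, 9.29, 12.7 and 9.86 CPM in control libraries (-1.27 ± 0.29 SE). Sox1, which lies within it in mm9 (12395519 to 12399555 inside 12385771 to 12436732), had 19.7, 10.1, 19.4 and 10.1 CPM in the mutant libraries, against 52.0, 33.1, 30.3 and 21.1 CPM in control libraries (-1.20 ± 0.35 SE, edgeR adjusted p = 1.00). The ranges of Sox1 did not overlap either, and its counts may not be separable from those of the RNA around it.

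The gene with the widest gap in the other direction was 3110007F17Rik, currently named Cldn34c1 and related by name to the claudins of tight junctions, on chromosome X. It had 3.64 and 3.56 CPM in deletion and 5.04 and 3.81 CPM in duplication-deletion libraries, against 0.360, 0.0237, 0 and 0.0452 CPM in control libraries. It was thus close to absent from the control libraries, which held 19 counts in all against 780 in the mutant libraries. The fitted log2 fold change of 5.24 ± 1.02 SE rests on those few control counts (edgeR adjusted p = 1.00, DESeq2 adjusted p = 2.57e-06). It was 5.09 in deletion and 5.39 in duplication-deletion neurons.

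Cntnap4, a neurexin-related protein of synapses, was higher in every mutant library. It had 14.6 and 6.08 CPM in deletion and 23.7 and 24.8 CPM in duplication-deletion libraries, against 5.56, 2.98, 0.738 and 2.35 CPM in control libraries (log2 fold change 2.57 ± 0.61 SE). The lowest mutant library lay just above the highest control. Kcnj2, the inward rectifier potassium channel Kir2.1, had 92.7 and 49.4 CPM in deletion and 57.9 and 84.8 CPM in duplication-deletion libraries, against 34.2, 28.7, 26.2 and 43.5 CPM in control libraries (1.10 ± 0.27 SE). The membrane-bound carbonic anhydrase Car12 had 11.2, 7.93, 7.43 and 10.1 CPM in the mutant libraries (deletion 1 and 3, duplication-deletion 2 and 4), against 4.75, 2.89, 1.78 and 2.47 CPM in control libraries (1.63 ± 0.37 SE). All 3 encode membrane proteins.

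The extracellular matrix gene qbrick, currently Frem1, had 19.4, 23.5, 24.7 and 39.3 CPM in the mutant libraries in that order, against 1.10, 11.6, 4.99 and 5.58 CPM in control libraries (2.20 ± 0.57 SE). Samd3, which encodes a sterile alpha motif protein, had 2.45, 9.73, 3.20 and 4.48 CPM in the mutant libraries, against 0.935, 1.66, 0.738 and 1.15 CPM in control libraries (2.15 ± 0.53 SE). The value of deletion 3 was the highest, and the log2 fold change was 1.59 without it. The acyl-CoA thioesterase Acot6 had 5.19, 2.79, 2.74 and 5.87 CPM in the mutant libraries, against 1.37, 0.592, 0.698 and 1.67 CPM in control libraries (1.93 ± 0.50 SE). The edgeR adjusted p of every higher leading gene was 1.00. DESeq2 called 5 of the 8 higher genes, leaving out Pcdhgb6, Kcnj2 and Acot6.

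Beyond the leading genes, DESeq2 called 6 others: Tal1 and Tal2 lower, and Slc6a7, BC064451, Gm7173 and mKIAA0154 higher. Slc6a7, a brain proline transporter, had 1.92, 2.73, 1.38 and 1.93 CPM in the mutant libraries (deletion 1 and 3, duplication-deletion 2 and 4), against 0.024, 0.474, 0.219 and 0.211 CPM in control libraries (DESeq2 adjusted p = 0.0219). BC064451 had 3.25, 2.79, 0.460 and 1.48 CPM in the mutant libraries, against 0.0151 to 0.213 CPM in control libraries. Control levels of both genes were below 1 CPM. For mKIAA0154 the mutant libraries had 9.20, 0.918, 20.4 and 10.8 CPM in the same order, against 1.25, 1.52, 1.84 and 1.76 CPM in control libraries. Deletion 3 lay below every control, so the positive sign of mKIAA0154 in deletion neurons rests on deletion 1. Tal1 and Tal2 are described with the neuronal subtypes.

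The protocadherin beta genes were shifted together towards higher levels in mutant neurons. Of the 21 tested (of 22 listed), 19 were positive and 1 was negative in both genotypes, which is 90.5% positive beside 23.6% of all genes. In 8 of them the unadjusted edgeR p was below 0.05 with the mutants higher, beside 1.97% of all genes, and in 7 the mutant libraries lay wholly above the controls, beside 0.946%. None passed the adjusted threshold. Summed over the cluster, the level was 457 and 388 CPM in deletion and 461 and 454 CPM in duplication-deletion libraries, against 351, 309, 254 and 182 CPM in control libraries. Every mutant sum lay above every control sum. The title of the series names this gene family, so the list is not independent of these samples.

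Pcdhb11 had the smallest p of the cluster, with 28.6 and 29.5 CPM in deletion and 61.5 and 63.1 CPM in duplication-deletion libraries, against 27.0, 14.7, 18.1 and 12.3 CPM in control libraries. Its log2 fold change was 1.34 ± 0.36 SE (edgeR adjusted p = 1.00), with 0.69 in deletion and 1.79 in duplication-deletion neurons. Pcdhb16 had 72.0 and 65.1 CPM in deletion and 62.8 and 54.0 CPM in duplication-deletion libraries, against 44.3, 39.7, 34.2 and 23.0 CPM in control libraries (0.85 ± 0.24 SE). The other genes without overlap were Pcdhb3 (1.32 ± 0.36 SE), Pcdhb6 (1.19 ± 0.34 SE), Pcdhb17 (0.83 ± 0.28 SE), Pcdhb18 (0.75 ± 0.25 SE) and Pcdhb14 (0.64 ± 0.26 SE). Pcdhb2 had the highest log2 fold change of the cluster, 1.95 ± 0.57 SE, with overlap between the groups, and Pcdhb4 was the one gene negative in both genotypes (-0.12 ± 0.29 SE). Pcdhb15 had opposite signs, 0.92 in deletion and -0.17 in duplication-deletion neurons.

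The median of the cluster was 0.64 on the log2 scale, 0.44 in deletion and 0.73 in duplication-deletion neurons, beside -0.01 over all genes. It was 0.63 with plain library totals and 0.51 without the 3 libraries that stood apart, where 5 genes had an unadjusted p below 0.05. With deletion libraries alone 2 of 21 genes had an unadjusted edgeR p below 0.05 on the higher side. With duplication-deletion libraries alone 9 of 21 did. The share over all genes was not counted in these settings. The beta genes are single-exon genes of similar sequence, so some reads can be shared among them and the members are not taken as independent of each other.

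**Figure D3:**
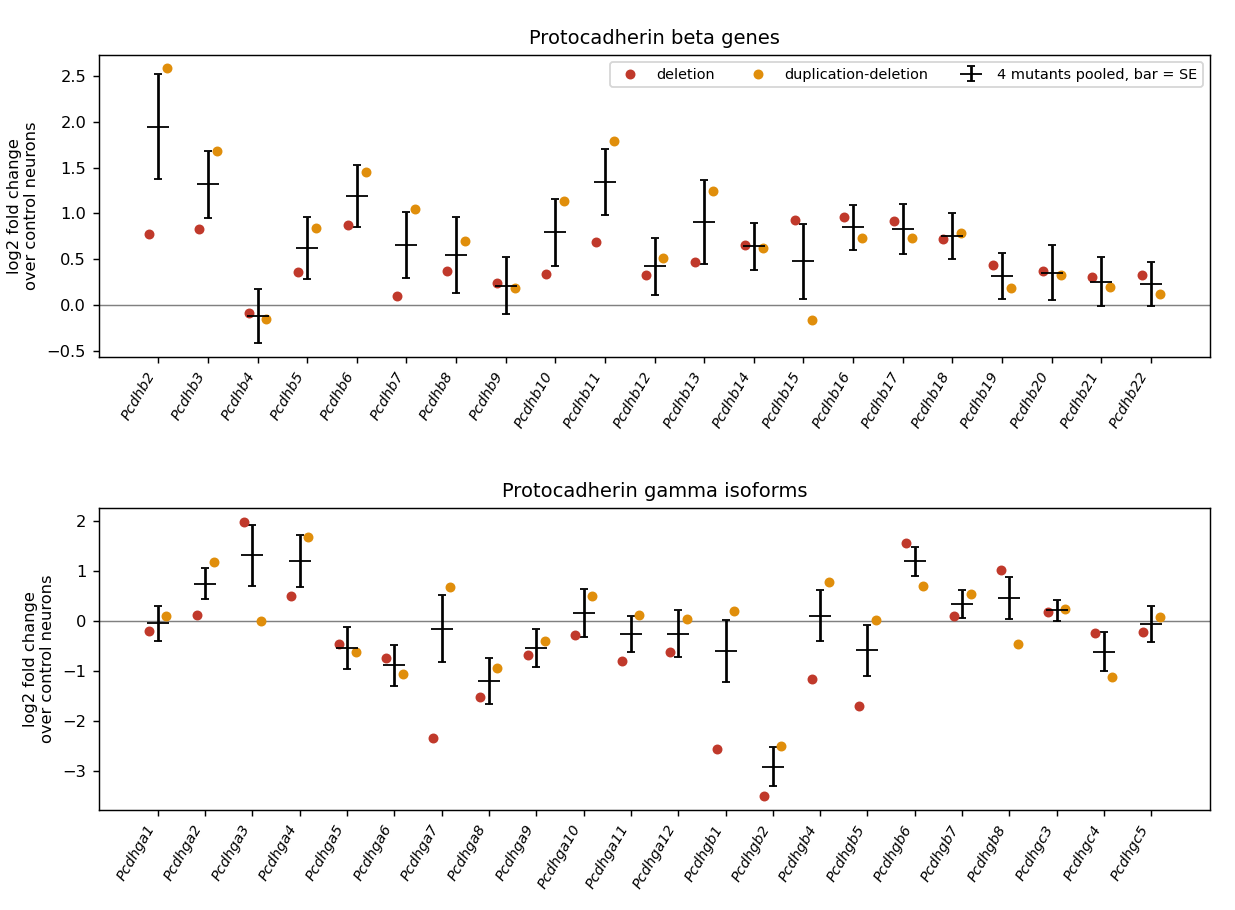
Log2 fold change over control neurons of each protocadherin beta gene (top) and gamma isoform (bottom). Red points are deletion neurons, orange points are duplication-deletion neurons, and black marks with bars are the 4 mutants pooled with their standard error. The beta genes lie above 0 in all but Pcdhb4 when pooled, while the gamma isoforms spread to both sides with Pcdhgb2 lowest at -2.92.

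The gamma cluster showed no such common shift. Of its 22 isoforms, 6 were positive and 6 negative in both genotypes, with a median of -0.11 that turned to 0.02 without the 3 libraries that stood apart. The summed level was 521 to 632 CPM in mutant and 505 to 613 CPM in control libraries, so the sums overlapped. Pcdhgb6 was the isoform with the smallest p on the higher side. It had 80.5 and 107 CPM in deletion and 41.3 and 60.7 CPM in duplication-deletion libraries, against 33.8, 34.7, 26.4 and 31.3 CPM in control libraries (1.20 ± 0.29 SE). Pcdhga8 was lower (-1.21 ± 0.46 SE), and Pcdhga2 (0.75 ± 0.32 SE) and Pcdhga4 (1.21 ± 0.52 SE) were higher, each with overlapping libraries and an unadjusted edgeR p below 0.05. Single isoforms of the cluster therefore lay on opposite sides of control while the sum over the cluster did not separate the groups.

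In the alpha cluster, 6 of 14 isoforms were positive and 2 negative in both genotypes. The median was 0.21, and it turned to -0.21 without the 3 libraries that stood apart. Pcdha1 had the smallest p, with 3.06 and 1.01 CPM in deletion and 1.34 and 5.20 CPM in duplication-deletion libraries, against 0.0959, 1.26, 0.858 and 0.573 CPM in control libraries (1.93 ± 0.78 SE). Its groups overlapped. The non-clustered protocadherins ran the other way from the beta genes, with 7 of 12 negative and 1 positive in both genotypes and a median of -0.31. Among them Pcdh9 had 157 and 35.4 CPM in deletion and 105 and 59.8 CPM in duplication-deletion libraries, against 276, 221, 168 and 100 CPM in control libraries (-1.10 ± 0.46 SE, edgeR adjusted p = 1.00).

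Most serotonergic markers and some GABAergic markers had negative log2 fold changes in both genotypes, and none passed the adjusted edgeR threshold. Of the 7 serotonergic genes tested, 6 were negative in both genotypes and 0 positive, and 3 had an unadjusted edgeR p below 0.05 on the lower side, beside 0.999% of all genes. The median was -1.43, and -1.17 without the 3 libraries that stood apart, where 5 of 7 were negative. With 1 library left out it lay between -2.13 (without duplication-deletion 2) and -1.08 (without deletion 3), and 2 to 5 genes had an unadjusted p below 0.05. Gata2, a partner of Gata3, had 1.02 and 1.07 CPM in deletion and 5.27 and 0.844 CPM in duplication-deletion libraries, against 8.99, 5.85, 8.34 and 3.90 CPM in control libraries (-1.72 ± 0.63 SE). Fev, the serotonergic ETS factor, had 0.655 and 0.172 CPM in deletion and 2.20 and 1.05 CPM in duplication-deletion libraries, against 3.24, 2.65, 2.83 and 2.29 CPM in control libraries (-1.43 ± 0.66 SE). Its libraries did not overlap, by a small margin. The serotonin-synthesising enzyme Tph2 had 25.9, 2.96, 32.0 and 22.2 CPM in the mutant libraries (deletion 1 and 3, duplication-deletion 2 and 4), against 27.0, 25.2, 38.6 and 84.4 CPM in control libraries, with overlap. Deletion 3 was the lowest library for Tph2. The summed serotonergic level was 8.41 to 69.9 CPM in mutant and 62.0 to 173 CPM in control libraries, with overlap.

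Of the 12 GABAergic genes, 6 were negative and 2 positive in both genotypes, beside 29.5% and 23.6% of all genes, with a median of -0.77. On the lower side 4 of them had an unadjusted edgeR p below 0.05, beside 0.999% of all genes. The median was -1.30 without the 3 libraries that stood apart, -0.54 without duplication-deletion 4 and -0.45 without control 1, and with 1 library left out 3 to 6 genes had an unadjusted p below 0.05 on the lower side. The summed GABAergic level was 130 to 368 CPM in mutant and 217 to 742 CPM in control libraries, with overlap. Tal1, a helix-loop-helix factor of midbrain and hindbrain GABAergic neurons, had 12.1 and 7.55 CPM in deletion and 4.00 and 1.61 CPM in duplication-deletion libraries, against 78.9, 12.5, 55.2 and 13.2 CPM in control libraries (-2.66 ± 0.74 SE, DESeq2 adjusted p = 0.0469). Its related factor Tal2 had 0.194 and 0.688 CPM in deletion and 1.76 and 0.675 CPM in duplication-deletion libraries, against 14.6, 4.43, 5.03 and 1.57 CPM in control libraries (-2.94 ± 0.79 SE, DESeq2 adjusted p = 0.0434). The control levels of both spread widely, and Tal2 overlapped between the groups.

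The vesicular GABA transporter Slc32a1 had 2.14, 3.35, 2.05 and 1.54 CPM in the mutant libraries (deletion 1 and 3, duplication-deletion 2 and 4), against 9.42, 2.58, 13.7 and 3.33 CPM in control libraries (-1.68 ± 0.56 SE). The GABA-synthesising enzyme Gad2 had 40.1, 41.0, 42.9 and 17.8 CPM in the mutant libraries, against 146, 69.6, 76.8 and 27.96 CPM in control libraries (-1.18 ± 0.46 SE, edgeR adjusted p = 1.00). Gad1, its paralog, had a log2 fold change of -1.32 ± 0.61 SE. For all 3 of these genes control 1 and control 3 were the highest of the 8 libraries. The forebrain interneuron factors Dlx1 (0.04 ± 0.72 SE), Dlx2 (0.09 ± 0.79 SE) and Dlx5 (-0.10 ± 0.94 SE) lay near 0. Of the 9 glutamatergic genes, 4 were negative and 1 positive in both genotypes, with a median of -0.35 (-0.098 in deletion and -0.70 in duplication-deletion neurons) that was -0.76 without the 3 libraries that stood apart. Their summed level was 128 to 225 CPM in mutant and 116 to 195 CPM in control libraries. The vesicular transporter Slc17a8, with the smallest p of the list, had 15.9 and 2.58 CPM in deletion and 13.2 and 10.4 CPM in duplication-deletion libraries, against 16.9, 27.4, 34.8 and 48.4 CPM in control libraries (-1.60 ± 0.51 SE). This value moved to -0.74 without the 3 libraries that stood apart.

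General neuronal and synaptic genes had small negative values in both genotypes. Of the 20 genes of the neuronal cytoskeleton and axon, 13 were negative and 0 positive in both genotypes (median -0.27). Of the 20 genes of synaptic vesicles and release, 14 were negative and 2 positive (median -0.39), and of the 27 synaptic and channel genes linked to autism, 22 were negative and 0 positive (median -0.36). Of the 21 neurexins, neuroligins and contactins, 16 were negative and 1, Cntnap4, was positive (median -0.40, and -0.71 without the 3 libraries that stood apart). These stand beside 29.5% negative and 23.6% positive among all genes. On the lower side 0, 3, 1 and 3 genes of these lists had an unadjusted edgeR p below 0.05, beside 0.999% of all genes. With 1 library left out the count for synaptic vesicles lay between 0 (without deletion 1, duplication-deletion 4 or control 3) and 4 (without control 4). For the autism-linked genes it lay between 0 and 7, reaching 4 without deletion 3 and 7 without control 4. No share over all genes was counted in these settings. Without duplication-deletion 4 the medians of these 2 lists were -0.24 and -0.21.

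Syt1, the calcium sensor of vesicle release, had 46.6 and 43.2 CPM in deletion and 85.1 and 47.1 CPM in duplication-deletion libraries, against 72.7, 95.1, 96.8 and 88.1 CPM in control libraries (-0.67 ± 0.26 SE). Cplx1, a complexin of the release machinery, had 2.01, 4.07, 4.62 and 2.25 CPM in the mutant libraries (deletion 1 and 3, duplication-deletion 2 and 4), against 6.59, 5.00, 8.74 and 5.32 CPM in control libraries (-0.98 ± 0.39 SE), without overlap. The extracellular glycoprotein Reln had 43.5, 51.3, 39.9 and 25.0 CPM in the mutant libraries, against 73.4, 59.0, 79.9 and 39.4 CPM in control libraries (-0.66 ± 0.29 SE). The ephrin receptor Epha5, of axon guidance, had 32.0, 27.4, 38.1 and 15.6 CPM in the mutant libraries, against 45.2, 68.4, 62.0 and 53.9 CPM in control libraries (-1.02 ± 0.29 SE, edgeR adjusted p = 1.00). Its groups did not overlap. Of 78 nuclear genes of oxidative phosphorylation, 47 were negative and 5 positive in both genotypes (median -0.24), with 0 below an unadjusted p of 0.05 in either direction. Without deletion 3, 21 of 78 had an unadjusted edgeR p below 0.05 on the lower side and the median was -0.45. The share over all genes in that setting was not counted.

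**Figure D4:**
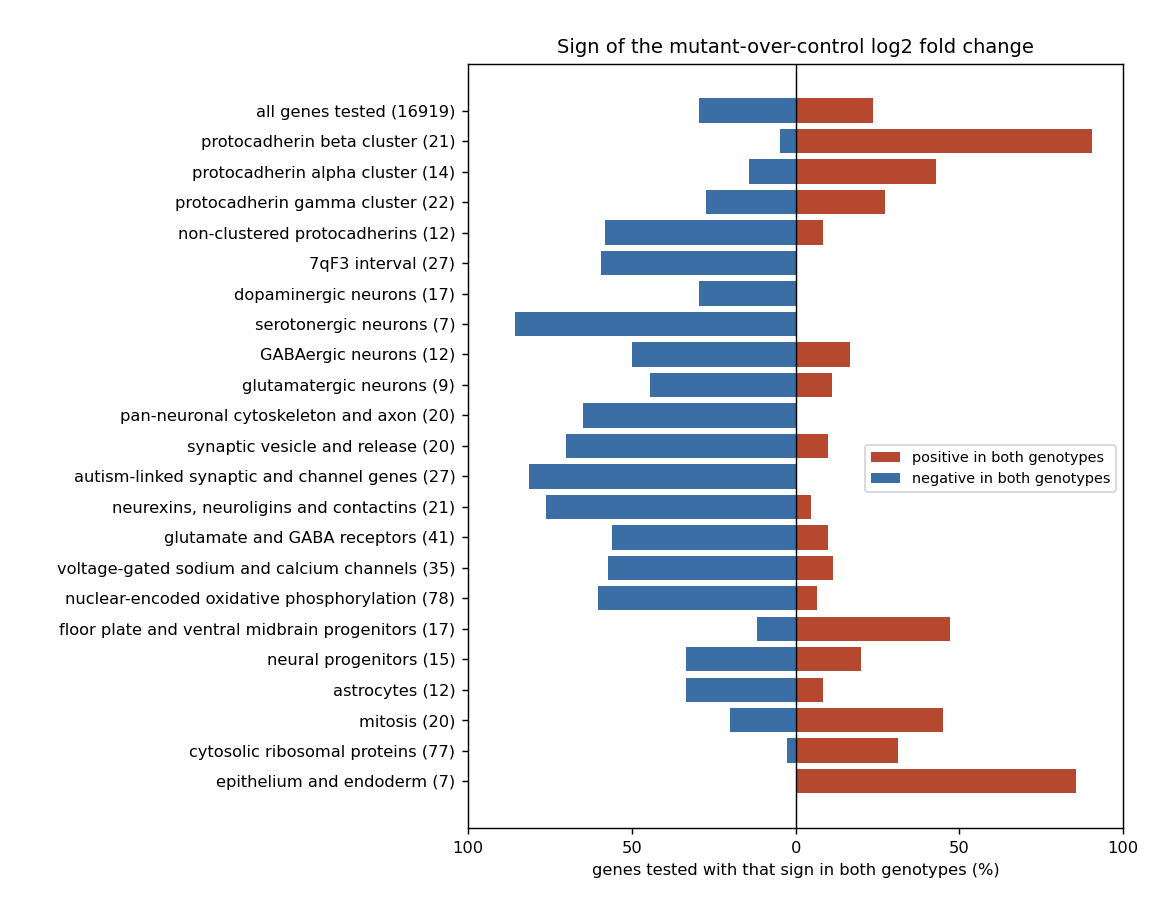
Share of the genes tested in each list whose log2 fold change over control had the same sign in both genotypes, positive to the right and negative to the left, with the number of genes tested in brackets and all genes at the top. The protocadherin beta bar reaches 90.5% on the positive side, and the serotonergic and autism-linked synaptic bars reach 85.7% and 81.5% on the negative side.

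Progenitor and glial genes were mixed. Neurog2, the proneural factor of midbrain neurons, had 18.3 and 17.97 CPM in deletion and 15.5 and 9.90 CPM in duplication-deletion libraries, against 6.16, 9.83, 5.11 and 3.50 CPM in control libraries (1.33 ± 0.36 SE, edgeR adjusted p = 1.00, and 0.87 without the 3 libraries that stood apart). The floor plate factor Lmx1a had 125 and 106 CPM in deletion and 115 and 92.7 CPM in duplication-deletion libraries, against 40.2, 94.1, 38.8 and 49.5 CPM in control libraries (0.98 ± 0.31 SE). Control 2 reached the level of the mutants. Of the 17 genes of the floor plate list, 8 were positive and 2 negative in both genotypes (median 0.44). The 17 proneural and Notch genes tested, Neurog2 among them, had 5 positive and 6 negative in both genotypes (median -0.20).

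Fabp7, the fatty acid binding protein of radial glia, had 80.8, 95.2, 131 and 87.6 CPM in the mutant libraries (deletion 1 and 3, duplication-deletion 2 and 4), against 220, 161, 176 and 165 CPM in control libraries (-0.87 ± 0.23 SE). Gfap, the astrocyte filament, had 41.7, 30.8, 36.6 and 47.0 CPM in the mutant libraries, against 61.1, 75.6, 70.3 and 128 CPM in control libraries (-1.10 ± 0.28 SE, edgeR adjusted p = 1.00, and -0.70 without the 3 libraries that stood apart). Neither gene overlapped between the groups. Of the 15 neural progenitor genes, Fabp7 among them, 3 were positive and 5 negative in both genotypes. Their median was -0.02, with -0.14 in deletion and 0.31 in duplication-deletion neurons. Their summed level was 1545 to 3016 CPM in mutant and 1582 to 2627 CPM in control libraries, with overlap. The astrocyte genes Aqp4 (-0.98 ± 0.35 SE) and Aldh1l1 (-0.85 ± 0.33 SE) were also lower with overlap, while the 12 astrocyte genes had 4 negative and 1 positive in both genotypes and a median of 0.18. The list's median was -0.25 in deletion and 0.17 in duplication-deletion neurons, so the list had no shared sign. Of its genes, 3 had an unadjusted edgeR p below 0.05 on the lower side and 0 on the higher side, beside 0.999% and 1.97% of all genes.

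Epithelial and muscle markers had mostly positive log2 fold changes, with overlapping sums, and none passed the adjusted edgeR threshold. Of 7 epithelial and endodermal genes tested (of 13 listed, 1 of them at 0 in every library), 6 were positive in both genotypes and 0 negative, with a median of 2.42. The median was 1.21 without duplication-deletion 4, and without a filter on low counts it was 1.17, with 9 of 12 pooled values positive. Their summed level was 12.9 to 93.2 CPM in mutant and 3.14 to 17.7 CPM in control libraries. Duplication-deletion 4 held the highest sum, with Krt19 at 61.0 CPM and Krt8 at 15.0 CPM, against at most 10.6 and 3.65 CPM in control libraries. Muscle genes had a summed level of 2.74 to 32.3 CPM in mutant and 2.55 to 5.14 CPM in control libraries, again highest in duplication-deletion 4. Of the 7 tested (of 12 listed), 6 were positive in both genotypes, with a median of 0.42 in deletion and 2.04 in duplication-deletion neurons. Genes this low in controls can pass the filter on low counts through the mutant libraries, which favours positive signs. The muscle list was not counted without that filter. Neural crest genes had 3 positive and 3 negative of 9 in both genotypes, and sums of mesenchymal and endothelial genes overlapped between the groups. The part of these cells in the differences of other genes was not tested.

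The genes chosen in neurons were also measured in NPCs and ESCs, which used other mutant and control libraries. The labels do not say whether cells of the 3 stages came from the same lines. In NPC libraries (6 mutant, 5 control), 14 of the 16 leading genes had the same sign as in neurons, and Rnf17 passed the test there, with a log2 fold change of -3.99 ± 0.50 SE (edgeR adjusted p = 0.000262). In the fit that spans the stages, 3 of 19500 genes (0.0154%) passed for NPC mutants against control. Pcdhgb2 had -2.01 ± 0.42 SE in NPCs (edgeR adjusted p = 0.131), Gm5124 had -2.95 ± 0.86 SE and 3110007F17Rik had 4.15 ± 1.23 SE. Gata3 had 0.80 ± 0.84 SE and Kcnj2 had -0.24 ± 0.35 SE in NPCs, both opposite in sign to neurons. In ESC libraries (6 mutant, 3 control), 11 of the 16 had the same sign and 0 passed. The share of all genes that kept their sign between stages was not counted, so these counts have no background beside them.

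The test of the difference itself called 0 genes between neurons and NPCs (0%) and 0 between neurons and ESCs (0%) with edgeR, beside 722 (3.70%) and 511 (2.62%) with an unadjusted p below 0.05. Among the leading genes Gata3 and Kcnj2 had an unadjusted edgeR p below 0.05 for neurons minus NPCs, and each had an adjusted p of 1.00. For neurons minus ESCs 5 of the 16 had an unadjusted edgeR p below 0.05, Rnf17, Pcdhgb2, qbrick, Bche and Gata3, again with an adjusted p of 1.00 each. In ESCs Rnf17 had a log2 fold change of 0.21 ± 0.52 SE and Pcdhgb2 had -0.24 ± 0.51 SE. All 21 beta protocadherins were positive in NPCs, with a median of 1.88, beside 20 of 21 and a median of 0.64 in neurons. Pcdhb19, which had 1.61 in NPCs (edgeR adjusted p = 0.0136), had 0.32 ± 0.25 SE in neurons. The alpha isoforms had a median of 2.34 in NPCs and 0.21 in neurons, and the gamma isoforms 0.08 and -0.11. In ESCs 10 of the 21 beta genes were positive and 8 negative (median 0). Of the 14 alpha isoforms 3 were positive and 5 negative there (median 0), and of the 22 gamma isoforms 15 were positive and 7 negative (median 0.29). The remaining beta and alpha genes had a fitted value of exactly 0 in ESCs, which can mark a gene without counts. Values in ESCs ranged from -3.09 to 4.99 for beta and from -5.01 to 3.17 for alpha genes. The medians of 0 therefore do not show that a shift was absent there.

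**Figure D5:**
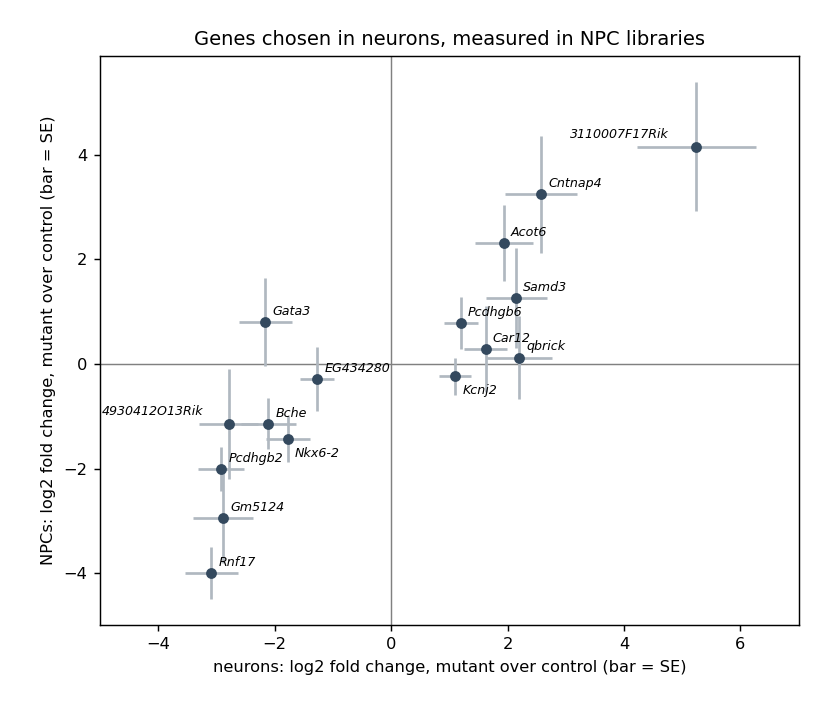
Log2 fold change of mutant over control in NPC libraries against that in neuron libraries for the 16 genes chosen in neurons, with bars for the standard error on each axis. In NPCs, 14 of the 16 points lie on the same side of 0 as in neurons, and Gata3 and Kcnj2 lie on the other.

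In the authors' deposited table, which tests each mutant genotype against the same control neurons, 44 of 15764 genes (0.279%) had an adjusted p below 0.05 in deletion and 183 of 15908 (1.15%) in duplication-deletion neurons. Both genotypes passed with the same sign in 5 of 15613 genes (0.0320%) in the authors' deposited table. These were 3110007F17Rik, which was higher, and Pcdhgb2, Rnf17, Gm5124 and 4930412O13Rik, which were lower. For Pcdhgb2 the authors' deposited table gives a log2 fold change of -3.50 (adjusted p = 5.95e-11) in deletion and -2.50 (adjusted p = 2.14e-06) in duplication-deletion neurons. For Gata3 the authors' deposited table gives -2.08 (adjusted p = 0.0707) in deletion and -2.22 (adjusted p = 0.00266) in duplication-deletion neurons, so it passed in 1 genotype. Fitted here with the 3 genotypes apart, edgeR called 0 genes in deletion (0%) and 6 in duplication-deletion neurons (0.0355%).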

How the data were processed

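The submitters' processing notes name STAR 2.6.0c, RSEM 1.3.0 and the mouse build mm9 for the expected counts that the authors deposited, 1 value per gene and library. Libraries were stranded and read as pairs of 75 bases, per the labels' protocols. The authors' deposited table gives log2 fold changes of mutant over control. Its p-value and adjusted p-value columns are credited by the submitters' processing notes to DESeq2 1.22.2. The test score and the mean normalised signal per comparison in the authors' deposited table, made by the same tool per the file headers, were not used. Here the counts were rounded, and 29876 entries stayed after 92 spike-ins were dropped. The main test was edgeR 4.0.16 under R 4.3.3 (robust quasi-likelihood, TMM, filterByExpr, Benjamini-Hochberg, two-sided, threshold 0.05), pooling 4 mutant against 4 control libraries. A 3-genotype fit gave signs, and a fit of all 28 libraries gave stages. Alternatives were DESeq2 1.42.0, limma 3.58.1, other scalings and filters, a replicate block, single genotypes and libraries left out. The edgeR fit was tested on simulated data.

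Genes were named by rule: interval and dopaminergic markers, up to 14 per direction past the threshold, otherwise 8 per direction with the smallest p, at least 2 mean CPM, the same sign in both genotypes and no overlap, and the gene of smallest p in each list. Other genes named were chosen after their values were seen. The members and the 58 gene lists were chosen with earlier results of these data known. Replicates were compared: 0 pairs were identical, with a chi-square per degree of freedom of at least 108.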

Additional observations from a re-analysis of the deposited data

Results flagged for a closer look

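A library was singled out where its gap to the nearest library of its group, divided by the group's range, exceeded Dixon's 95% critical value. Chance gives about 1 in 20 such groups, and 184 groups were examined. In mutant neurons, 3110007F17Rik reached 5.04 CPM in duplication-deletion 2, and Syt1 reached 85.1 CPM there. Deletion 1 stood out with 0.631 CPM for Egr2, 1.67 CPM for Tek, 1054 CPM for Gpi1 and 199.7 CPM for the imprinted gene Nnat. Deletion 3 stood out with 8.41 CPM for Mrps18c and with 388 summed CPM for the protocadherin beta cluster, the lowest mutant sum. Duplication-deletion 4 stood out with 20.9 CPM for Hist2h2be and 9.02 CPM for Cdh1, and with summed levels of 93.2 CPM for epithelial and 32.3 CPM for muscle genes. In control neurons, 3110007F17Rik had 0.360 CPM in control 1. Control 3 stood out with 102 CPM for Sez6l2 and 5.43 CPM for Gpr17.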

How the results depend on the processing

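The pooled edgeR count stayed at 0, in total and in each direction, under other scaling, filters, estimation and limma-voom, with any 1 library left out, and without control 3, control 4 and deletion 3, a setting chosen after seeing the data. DESeq2 called 19 (9 higher, 10 lower), and duplication-deletion libraries alone gave 8, of which 1 was higher and 2 lower in both genotypes. Counts for neurons minus NPCs and neurons minus ESCs ranged from 0 to 1 with 1 library left out, and were 1 each without deletion 3. The interval median ranged from 36.3% to 62.7% in deletion and from 82.3% to 94.7% in duplication-deletion neurons with 1 library left out, and was 46.7% and 82.9% with plain library totals.

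Signs changed mainly in dopaminergic markers. Their values differed between deletion and duplication-deletion neurons without passing the threshold (edgeR adjusted p of 0.354 or more for those named). With deletion libraries alone the log2 fold change was -2.24 for Slc6a3, -1.16 for Slc18a2, -0.047 for Nr4a2, -0.63 for Lmx1b and -0.31 for Foxa2. With duplication-deletion libraries alone it was 0.19 for Kctd13, 0.59 for Th, 0.33 for Ddc and 0.72 for En1. With the mean of both genotype effects it was -0.51 for Slc6a3, -0.26 for Slc18a2 and -0.017 for Foxa2. Without the 3 libraries that stood apart it was 0.18 for Aldoa, 0.21 for Th, -0.066 for Foxa2 and 0.027 for En1. Limma-voom gave -0.26 for Slc6a3, and no filter gave -0.011 for Slc18a2. With 1 library left out the range was -0.55 to 0.11 for Kctd13, -1.33 to 0.21 for Th, -0.61 to 0.91 for Slc6a3, -1.19 to 0.40 for Slc18a2, -0.068 to 0.57 for Lmx1b, -0.24 to 0.23 for Foxa2 and -1.42 to 0.23 for En1. The cause was not tested.

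The replicate block, 1 mutant and 1 control library per number, called 0 genes in every comparison and turned Slc6a3 to -0.21. Under it 9 of 20 synaptic vesicle genes, 12 of 27 autism-linked synaptic genes and 6 of 78 oxidative phosphorylation genes had an unadjusted edgeR p below 0.05 on the lower side. Shares over all genes were not counted under the block or with libraries left out, so list counts in these settings have no background. Correlations of deviations from group means for same-numbered libraries were 0.429, 0.0794, 0.512 and 0.320 for numbers 1 to 4, all positive. Duplication-deletion 2 correlated slightly better with control 1 (0.114) than with control 2. The other mutant libraries correlated best with the control of their own number. With 2 libraries per mutant genotype the deviations mirror each other, so this check cannot decide whether the numbers pair the libraries. The main test did not pair them. Deletion and duplication-deletion libraries share no replicate number, so differences between these genotypes were not separable from differences between numbers. Depth limits the genes under 1 CPM, where counting error adds to the spread between libraries.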

Other observations

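Among lists not described above, 7 of 11 genes of choroid plexus and ciliated ependyma were positive in both genotypes and 0 negative (median 0.61, and 1.18 without the 3 libraries that stood apart). Its gene of smallest p, 1700009P17Rik (currently Cfap126, of motile cilia), had 23.8, 18.1, 42.6 and 69.2 CPM in mutant libraries (deletion 1 and 3, duplication-deletion 2 and 4), against 7.96, 22.6, 8.22 and 17.9 CPM in control libraries. The forebrain and hypothalamic factor Nkx2-1 had 0.582, 6.39, 0.460 and 1.78 CPM in mutant libraries, against 0, 0.332, 0.140 and 0.166 CPM in control libraries (log2 fold change 3.83 ± 1.14 SE, and 2.50 without those 3 libraries). The neural crest list had 3 of 9 genes positive and 3 negative in both genotypes (median 0.077). Its gene of smallest p, Tcfap2b (currently Tfap2b), had 0.267, 0.134, 0.690 and 0.694 CPM in mutant libraries, against 4.46, 2.72, 1.68 and 0.482 CPM in control libraries (-2.38 ± 0.78 SE), with overlap. The collagen Col19a1 had 1.46, 1.24, 0.858 and 1.03 CPM in mutant libraries, against 5.39, 3.15, 3.85 and 1.91 CPM in control libraries (-1.64 ± 0.45 SE). The imprinted gene Nnat, of neuronal membranes, had 199.7, 37.8, 27.3 and 24.6 CPM in mutant libraries, against 390, 365, 118 and 161 CPM in control libraries (-1.84 ± 0.71 SE, and -3.11 without deletion 1). None of these genes passed an adjusted p of 0.05 in the edgeR test.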
